A study of Mus musculus with 9 samples.

Results

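The genes that copy the genome and those that divide it were followed in embryoid bodies (EB) against embryonic stem (ES) cells of the mouse line E14, from which the bodies had been grown. The list held 53 genes, of which 31 act in DNA replication, 19 in mitosis and 3 in the control of both, and they were listed by role. Of these, 52 had a probe set that the array annotation pairs with that gene alone, out of 18193 genes with such a probe set in the whole data set. Ccnb1, which encodes cyclin B1, had none of its own in the annotation used and was not analysed here, so 18 mitosis genes were measured. Each gene was represented by its probe set of the highest mean value over all arrays. The samples were 5 arrays of embryoid bodies (EB1, EB3, EB5, EB7 and EB9) and 4 arrays of ES cells (ES2, ES6, ES8 and ES10), all of untreated total RNA. Embryoid bodies are aggregates in which ES cells differentiate into several tissues at once, and how long they had been cultured was not given in the sources used here. The 4 ES cell arrays are biological replicates per the study's methods. Nothing states whether the embryoid body arrays came from separate cultures, so the p-values measure only the spread between these samples. Because each array held RNA of mixed cells, fewer dividing cells and less of an mRNA in each dividing cell cannot be told apart.

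A cell licenses its origins before S phase, when the origin recognition complex (Orc proteins), Cdc6 and Cdt1 load the ring of Mcm2 to Mcm7 onto DNA. Cdc45 and the GINS complex then turn the ring into a running helicase, polymerases copy the strands, and the clamp Pcna, its loader RFC and the single-strand binder RPA serve the fork. In mitosis, Cdk1 with cyclins A and B starts the division, the Aurora and Polo kinases build the spindle, a checkpoint holds the chromosomes until each is attached, and the anaphase-promoting complex with Cdc20 ends the phase. Replication genes are known as targets of E2F factors, whereas many mitotic genes are known to be read through a promoter element named CHR, for cell cycle genes homology region. Mouse ES cells are known for a short cycle in which S phase takes a large share of the time.

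Sequences around such elements are shown for members that the results below turn on, from the RefSeq promoter windows of build GRCm38.p6. The capitals mark a match to an E2F motif (TTTCCCGC, TTTGGCGC, TTTCGCGC or TTTGCCGC on either strand) in the first set and to a CHR motif (TTTGAA or TTCGAA on either strand) in the second set. All runs read 5′ to 3′ along the strand of the gene.
The E2F set held 3 genes of the replicative ring or its loading, 1 origin protein and 1 clamp loader subunit.
Mcm6, chr1:128359729-128359768, minus strand: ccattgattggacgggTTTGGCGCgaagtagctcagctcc
Mcm3, chr1:20820270-20820309, minus strand: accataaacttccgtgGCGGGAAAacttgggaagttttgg
Cdt1, chr8:122568031-122568064, plus strand: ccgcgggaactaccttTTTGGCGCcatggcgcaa
Orc1, chr4:108579411-108579450, plus strand: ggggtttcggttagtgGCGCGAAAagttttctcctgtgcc
Rfc3, chr5:151651195-151651234, minus strand: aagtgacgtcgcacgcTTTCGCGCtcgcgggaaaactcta
The CHR set held the mitotic members with the largest falls that had a window, and Plk1.
Ccnb2, chr9:70421529-70421566, minus strand: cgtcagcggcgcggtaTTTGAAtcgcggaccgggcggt
Cdc20, chr4:118437340-118437377, minus strand: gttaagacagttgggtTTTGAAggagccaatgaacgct
Aurka, chr2:172370521-172370554, minus strand: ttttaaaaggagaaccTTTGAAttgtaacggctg
Ube2c, chr2:164769884-164769921, plus strand: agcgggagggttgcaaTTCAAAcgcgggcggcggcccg
Bub1, chr2:127831824-127831861, minus strand: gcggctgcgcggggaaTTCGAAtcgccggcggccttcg
Plk1, chr7:122159449-122159484, plus strand: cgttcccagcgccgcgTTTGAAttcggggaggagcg

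A pair of whole windows are given to show a replication promoter beside a mitotic one, each of 300 bases from 250 before the start site to 50 after it. The Mcm6 window holds 3 E2F matches, 2 of them overlapping, and no CHR match. The Cdk1 window holds 2 CHR matches and was the 1 window of a mitosis member with an E2F match. In both, the capitals mark the E2F and CHR matches.
Mcm6 promoter, chr1:128359656-128359955, minus strand: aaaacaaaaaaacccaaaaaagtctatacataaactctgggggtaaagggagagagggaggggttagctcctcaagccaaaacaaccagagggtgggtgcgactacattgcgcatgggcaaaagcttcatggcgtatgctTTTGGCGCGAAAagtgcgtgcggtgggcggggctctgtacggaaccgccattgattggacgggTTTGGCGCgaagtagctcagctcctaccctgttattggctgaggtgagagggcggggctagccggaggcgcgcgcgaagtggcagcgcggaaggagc
Cdk1 promoter, chr10:69352863-69353162, minus strand: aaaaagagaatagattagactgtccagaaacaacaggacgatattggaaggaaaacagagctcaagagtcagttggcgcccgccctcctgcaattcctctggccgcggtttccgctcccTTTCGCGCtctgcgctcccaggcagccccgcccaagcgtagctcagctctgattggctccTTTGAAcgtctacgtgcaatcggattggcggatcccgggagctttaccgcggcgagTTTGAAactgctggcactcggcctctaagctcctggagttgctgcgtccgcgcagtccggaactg

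Log2 medians over all probe sets lay between 4.01 and 4.09, and pairs of arrays within a group correlated at 0.997 to 0.999 in embryoid bodies and at 0.995 to 0.998 in ES cells. Marker genes were checked against the labels. Of the pluripotency markers, 8 of 10 were lower in embryoid bodies, with summed values of 2187 to 3254 in EB arrays and 14987 to 17071 in ES arrays, and Tbx3 was higher. Summed fibroblast markers were 10423 to 11448 in EB arrays and 279 to 833 in ES arrays (7 of 8 higher), and heart muscle markers 13785 to 16556 in EB arrays and 329 to 596 in ES arrays (7 of 8 higher). Markers of blood (3 of 6 higher), endothelium (4 of 6) and endoderm (4 of 8) moved in part, and of 6 neural markers 1 was lower and 1 higher. The part of these cell types in the values below was not tested.

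Most members were lower in embryoid bodies, and most of the falls were under 2-fold. Of the 52 measured members, 40 were lower and 1 was higher at an adjusted p under 0.05 (limma, Benjamini-Hochberg over 45037 probe sets), and 11 did not pass. Over all 18193 genes, 14.7% were lower and 15.7% were higher by the same call. The share lower depended on the setting: without EB9 26.5% of all genes and 41 members were lower, and with array weights 28.1% of all genes and 43 members. Among the 11982 genes with a mean log2 value of 4 or more, which take in every measured member, the shares were 20.9% lower and 23.4% higher. In 41 members every EB array lay below every ES array, against 19.4% of all genes, in 1 member every EB array lay above, and in 10 the groups overlapped. The median member had a log2 difference (embryoid bodies minus ES cells) of -0.62, or 65.2% of its ES cell value, while the median of all genes was -0.04 with quartiles of -0.13 and 0.09. A fall of at least 2-fold was called in 7 members, against 3.63% of all genes.

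**Figure D1:**
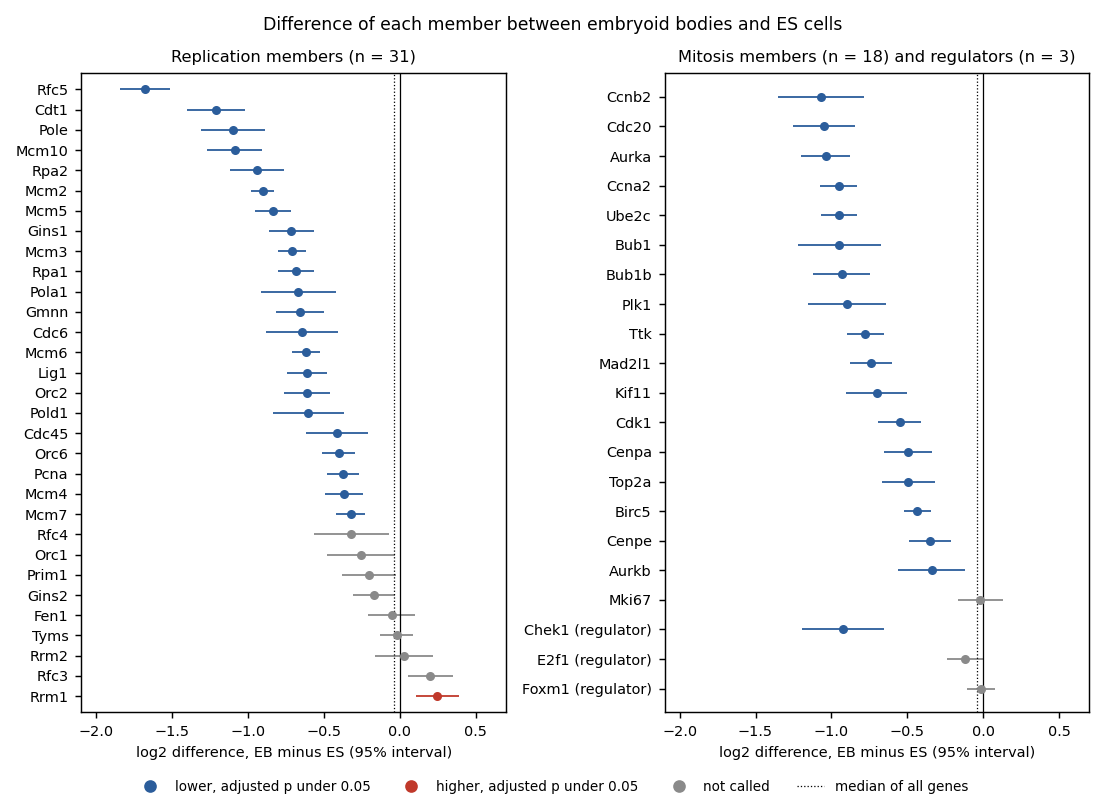
Log2 difference of embryoid bodies minus ES cells for each measured member, with its 95% interval; blue points were lower and the red point higher at an adjusted p under 0.05, and grey points were not called. Of the points, 49 of 52 lie left of 0, from Rfc5 at -1.68 to Rrm1 at 0.25, and the dotted line marks the median of all genes at -0.04.

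Of the genes of origin licensing, 11 of 12 were lower, with a median of -0.63, and in all 12 the EB arrays lay below the ES arrays. The largest fall among them was that of Cdt1, which brings the Mcm ring to the origin. Log2 values of Cdt1 were 10.54, 10.61, 10.50, 10.32 and 10.34 in EB1, EB3, EB5, EB7 and EB9, against 11.83, 11.75, 11.59 and 11.51 in ES2, ES6, ES8 and ES10. The lowest ES array was 0.90 log2 units above the highest EB array, and the difference was -1.21 ± 0.08 (SE), with embryoid bodies at 43.3% of the ES cell level (adjusted p = 8.6e-06). Gmnn, which encodes geminin, the inhibitor that binds Cdt1 protein, fell by less (-0.66, adjusted p = 0.00011), with values between 9.93 and 10.27 in EB arrays and between 10.72 and 10.88 in ES arrays. Cdc6, the ATPase that recruits Cdt1 and the ring to the origin recognition complex, was lower by a difference of -0.64 (adjusted p = 0.0016).

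All 6 subunits of the ring, Mcm2 to Mcm7, were lower, and their differences were unequal, between -0.90 and -0.32 with a median of -0.67. Log2 values of Mcm2 were 10.45, 10.46, 10.37, 10.44 and 10.39 in EB1, EB3, EB5, EB7 and EB9, against 11.33, 11.30, 11.37 and 11.31 in ES2, ES6, ES8 and ES10. These arrays were the tightest of the ring genes, with an SD of 0.04 in embryoid bodies (n = 5) and 0.03 in ES cells (n = 4), and the difference was -0.90 ± 0.03 (adjusted p = 3e-07). Next came Mcm5 (-0.83), Mcm3 (-0.71) and Mcm6 (-0.62). Mcm4 (-0.37) and Mcm7 (-0.32) changed least, and in both every EB array still lay below every ES array. This order is that of the brightest probe sets, and further probe sets changed it. They gave -0.76 for Mcm2, -1.10 and -0.17 for Mcm5, and -0.95, -0.90, -0.61 and -0.12 for Mcm3. For Mcm6 they gave -0.54 and -0.38, for Mcm4 -0.54, and for Mcm7 -0.60, -0.40 and -0.35. All of these were called lower except -0.17 and -0.12. Whether the 6 differences differ from each other was not tested.

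Of the origin recognition complex, Orc2 (-0.61, adjusted p = 0.00013) and Orc6 (-0.40, adjusted p = 0.0002) were lower. Orc1, the ATPase subunit that is known to vary through the cycle, was not called on its brightest probe set. Its log2 values were 7.09, 7.12, 7.13, 6.83 and 6.74 in EB1, EB3, EB5, EB7 and EB9, against 7.23, 7.17, 7.39 and 7.17 in ES2, ES6, ES8 and ES10. The groups did not overlap, by a gap of 0.03, and the difference was -0.26 (95% interval -0.48 to -0.03, adjusted p = 0.082). A second Orc1 probe set of nearly the same mean over all arrays gave 5.87 in embryoid bodies and 8.23 in ES cells, a difference of -2.36 (adjusted p = 0.00013). Leaving out EB9 made that second probe set the brightest, and Orc1 was then called with -2.16.

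Of the 4 genes that start the helicase, 3 were lower. Mcm10, which joins the helicase as it starts, fell the most, with log2 values of 8.54, 8.42, 8.31, 8.26 and 8.13 in EB1, EB3, EB5, EB7 and EB9, against 9.42, 9.47, 9.41 and 9.39 in ES2, ES6, ES8 and ES10. The EB arrays spread more widely (SD 0.16) than the ES arrays (SD 0.04), without overlap, and the difference was -1.09 ± 0.08 (adjusted p = 1.1e-05). Gins1 (-0.72) and Cdc45 (-0.42) were lower as well. Gins2, a partner of Gins1 in the GINS complex, had values of 8.66, 8.67, 8.66, 8.69 and 8.54 in EB1, EB3, EB5, EB7 and EB9, against 8.77, 8.92, 8.89 and 8.68 in ES2, ES6, ES8 and ES10. ES10 lay below the highest EB array, and the difference of -0.17 (95% interval -0.31 to -0.03) did not pass (adjusted p = 0.077).

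At the fork, 7 of 10 members were lower with a median of -0.64, and the list's largest fall and a positive difference stood side by side in the clamp loader RFC, which opens the Pcna ring and closes it around DNA. Rfc5 had log2 values of 9.11, 9.41, 9.33, 9.26 and 9.13 in EB1, EB3, EB5, EB7 and EB9, against 10.99, 11.01, 10.85 and 10.86 in ES2, ES6, ES8 and ES10. The groups were 1.44 log2 units apart at their nearest arrays, and Rfc5 reached 31.3% of its ES cell level, a difference of -1.68 ± 0.07 (adjusted p = 6.5e-07). It was the largest fall of all measured members. Rfc4, by contrast, had values of 9.59, 9.72, 9.57, 9.82 and 9.72 in EB1, EB3, EB5, EB7 and EB9, against 10.26, 10.16, 9.77 and 9.82 in ES2, ES6, ES8 and ES10. ES8 lay within the EB range and ES10 was level with EB7, and the difference of -0.32 (95% interval -0.57 to -0.07) did not pass (adjusted p = 0.071). Rfc3 pointed the other way, with values of 9.08, 9.25, 9.19, 9.20 and 9.09 in EB1, EB3, EB5, EB7 and EB9, against 8.89, 9.13, 8.96 and 8.87 in ES2, ES6, ES8 and ES10. Its difference was 0.20 (95% interval 0.05 to 0.35), with overlapping arrays, and it did not pass either (adjusted p = 0.06). Rfc3 was called higher under 8 alternatives, among them quantile normalization, array weights and leaving out EB9 or ES6, with differences of 0.14 to 0.26 (adjusted p from 0.012 to 0.046). Rfc5 has 1 probe set, so no second reading of its fall was at hand, while the second probe sets of Rfc3 (0.08) and Rfc4 (-0.23) were not called.

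Pcna, the sliding clamp that holds polymerases on DNA, fell by less than most of the list, with values between 12.82 and 12.96 in EB arrays and between 13.18 and 13.37 in ES arrays, a difference of -0.38 (adjusted p = 0.00027). On the brightest probe sets, the polymerases were unequal in the same way. Pole, the catalytic subunit of the leading-strand polymerase, had log2 values of 7.87, 7.85, 7.79, 7.85 and 7.64 in EB1, EB3, EB5, EB7 and EB9, against 9.08, 9.04, 8.80 and 8.69 in ES2, ES6, ES8 and ES10. Every EB array was at least 0.81 below the lowest ES array, and the difference was -1.10 ± 0.09 (adjusted p = 2.7e-05). Pola1, which starts each new strand (-0.67), and Pold1, which extends the lagging strand (-0.60), were lower by smaller differences. A second Pold1 probe set, however, fell as far as Pole, with 7.25 in embryoid bodies and 8.37 in ES cells (-1.11, adjusted p = 0.0057). The second Pola1 probe set had a mean log2 value of 1.92 and was not called. Prim1, the primase that lays the RNA primers for Pola1, had values of 9.89, 9.91, 9.84, 9.91 and 9.78 in EB1, EB3, EB5, EB7 and EB9, against 10.25, 10.18, 9.89 and 9.95 in ES2, ES6, ES8 and ES10. ES8 lay within the EB range, and the difference of -0.20 (95% interval -0.38 to -0.03) did not pass (adjusted p = 0.082).

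Of the RPA complex, which coats single-stranded DNA, Rpa2 had log2 values of 9.12, 9.03, 8.84, 8.75 and 8.86 in EB1, EB3, EB5, EB7 and EB9, against 9.83, 9.89, 9.90 and 9.82 in ES2, ES6, ES8 and ES10. The groups lay 0.70 apart, with a difference of -0.94 ± 0.08 (adjusted p = 2.4e-05). Rpa1, the large subunit, was lower by a difference of -0.68 (adjusted p = 1.4e-05). On the brightest probe sets, the joining of lagging-strand fragments was split. Lig1, the ligase, was lower (-0.61, adjusted p = 5.5e-05), and Fen1, the nuclease that trims the flaps before ligation, was not called. Fen1 values were 11.21, 11.27, 11.22, 11.10 and 11.02 in EB1, EB3, EB5, EB7 and EB9, against 11.24, 11.06, 11.31 and 11.26 in ES2, ES6, ES8 and ES10. EB and ES arrays were interleaved, with a difference of -0.05 (95% interval -0.21 to 0.10, adjusted p = 0.52). A second Fen1 probe set was lower, with 9.16 in embryoid bodies and 9.57 in ES cells, a difference of -0.40 (adjusted p = 0.0085).

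On their brightest probe sets, the 3 genes of nucleotide supply were not lower, at an adjusted or an unadjusted p under 0.05. Rrm1, the large subunit of ribonucleotide reductase, which makes the building blocks of DNA, had log2 values of 10.29, 10.35, 10.26, 10.43 and 10.35 in EB1, EB3, EB5, EB7 and EB9, against 9.94, 10.07, 10.14 and 10.21 in ES2, ES6, ES8 and ES10. All EB arrays lay above all ES arrays, by a gap of 0.05, and the difference was 0.25 ± 0.06 (adjusted p = 0.018). It was the 1 member called higher, at 119% of its ES cell level. Rrm2, the small subunit whose level is known to peak in S phase, had values of 12.18, 12.26, 12.23, 12.39 and 12.31 in EB1, EB3, EB5, EB7 and EB9, against 12.11, 12.07, 12.46 and 12.34 in ES2, ES6, ES8 and ES10. ES8 was above every EB array and ES2 and ES6 were below every EB array, so the difference of 0.03 (95% interval -0.16 to 0.22, adjusted p = 0.79) set no direction. Other Rrm2 probe sets gave differences of 0.01 and -0.26 and were not called. Tyms, thymidylate synthase, was the dimmest member, with values between 5.44 and 5.64 in EB arrays and between 5.55 and 5.57 in ES arrays, and its difference of -0.02 was not called (95% interval -0.13 to 0.09, adjusted p = 0.74). Its ES arrays were nearly constant (SD 0.01) and its other probe sets had mean log2 values of 2.42 to 3.78, so Tyms says little about this family. The call of Rrm1 was lost without ES6 (0.24, adjusted p = 0.050) and on the mean of its 3 probe sets (0.11, adjusted p = 0.15).

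**Figure D2:**
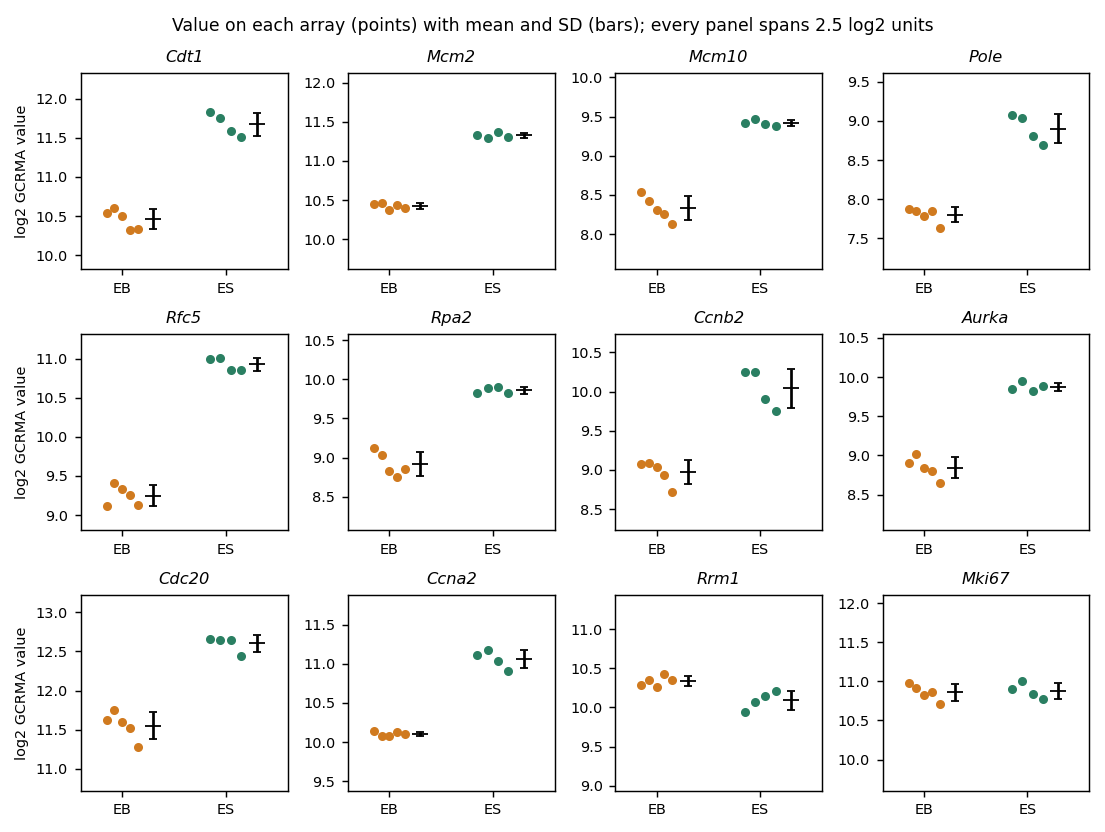
Log2 GCRMA value on each array for 12 members, embryoid bodies in orange and ES cells in green, with the group mean and SD in black (n = 5 and n = 4); each panel spans the same number of log2 units, and levels are not compared between genes. From Cdt1 to Ccna2 the groups lie apart, with EB arrays lower, Rrm1 has EB arrays higher, and Mki67 overlaps.

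Of the mitosis members, 17 of 18 were lower, with a median of -0.76 or 59.2% of the ES cell level. The cyclins and their kinase fell in all 3 measured genes. Ccnb2, cyclin B2, had log2 values of 9.08, 9.09, 9.03, 8.94 and 8.71 in EB1, EB3, EB5, EB7 and EB9, against 10.26, 10.25, 9.90 and 9.75 in ES2, ES6, ES8 and ES10. The ES arrays were themselves spread over 0.25 (SD, n = 4), with ES2 and ES6 above ES8 and ES10, and all stood above the EB arrays, for a difference of -1.07 ± 0.12 (adjusted p = 0.0002). Ccna2, cyclin A2, which serves both S phase and mitotic entry, had values of 10.14, 10.08, 10.08, 10.13 and 10.10 in EB1, EB3, EB5, EB7 and EB9, against 11.11, 11.18, 11.04 and 10.91 in ES2, ES6, ES8 and ES10. Its EB arrays varied little (SD 0.03), and the difference was -0.95 ± 0.05 (adjusted p = 2.4e-06). Cdk1, the kinase that both cyclins switch on, fell by less on these probe sets, with a difference of -0.55 ± 0.06 (adjusted p = 0.00018). A second Ccna2 probe set gave 9.80 in embryoid bodies and 10.25 in ES cells. Its difference of -0.45 (adjusted p = 0.0055) was smaller than that of Cdk1.

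All 4 genes listed for the mitotic kinases and the chromosomal passenger complex were lower, of which Birc5 encodes no kinase. Aurka, the Aurora kinase of the spindle poles, had log2 values of 8.90, 9.02, 8.84, 8.80 and 8.65 in EB1, EB3, EB5, EB7 and EB9, against 9.85, 9.94, 9.83 and 9.89 in ES2, ES6, ES8 and ES10. EB arrays stood 0.81 below the lowest ES array, with a difference of -1.04 ± 0.07 (adjusted p = 7.9e-06). Plk1, the Polo-like kinase, had a difference of -0.90 (adjusted p = 0.00036). Aurkb, the Aurora kinase of the chromosomal passenger complex, had the smallest difference among called mitosis members, with values of 8.12, 8.15, 8.04, 7.83 and 7.80 in EB1, EB3, EB5, EB7 and EB9, against 8.48, 8.38, 8.30 and 8.15 in ES2, ES6, ES8 and ES10. EB3 and ES10 all but touched, and the difference of -0.34 (adjusted p = 0.036) lost its call when any 1 of EB5, EB7, ES2, ES6 or ES8 was left out (adjusted p from 0.061 to 0.095). Birc5, survivin, which sits in the same complex, was lower by a difference of -0.43 with tight arrays (SD 0.05 in both groups, adjusted p = 3.9e-05).

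The spindle checkpoint and the exit from mitosis were lower in 4 of 4 and 2 of 2 genes. Bub1, a checkpoint kinase of the kinetochore, had log2 values of 9.30, 9.47, 9.46, 9.37 and 9.23 in EB1, EB3, EB5, EB7 and EB9, against 10.56, 10.53, 10.15 and 10.01 in ES2, ES6, ES8 and ES10. As in Ccnb2, ES2 and ES6 stood above ES8 and ES10, the groups did not overlap, and the difference was -0.95 ± 0.12 (adjusted p = 0.00034). Bub1b (-0.93), Ttk (-0.78) and Mad2l1 (-0.74) encode other parts of the checkpoint and were lower too. Cdc20, the activator of the anaphase-promoting complex, had values of 11.62, 11.75, 11.60, 11.52 and 11.28 in EB1, EB3, EB5, EB7 and EB9, against 12.66, 12.65, 12.65 and 12.45 in ES2, ES6, ES8 and ES10. The gap between groups was 0.70, and the difference was -1.05 ± 0.09 (adjusted p = 3.2e-05). Ube2c, the ubiquitin-conjugating enzyme of that complex, had values of 10.68, 10.79, 10.67, 10.82 and 10.79 in EB1, EB3, EB5, EB7 and EB9, against 11.66, 11.62, 11.81 and 11.72 in ES2, ES6, ES8 and ES10. Its groups stood 0.79 apart, with a difference of -0.95 ± 0.05 (adjusted p = 2.3e-06).

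Among chromosome and spindle proteins, 4 of 5 were lower: Kif11, a motor that pushes spindle poles apart (-0.70), Cenpa, the centromeric histone (-0.50), Top2a, the topoisomerase that untangles sister chromatids (-0.49), and Cenpe, a kinetochore motor (-0.35). Mki67, which encodes Ki-67, a common label of cycling cells, was the 1 mitosis member not called. Its log2 values were 10.98, 10.91, 10.83, 10.87 and 10.71 in EB1, EB3, EB5, EB7 and EB9, against 10.90, 11.00, 10.84 and 10.77 in ES2, ES6, ES8 and ES10. EB and ES arrays covered the same range, and the difference was -0.02 (95% interval -0.17 to 0.13, adjusted p = 0.82).

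The 3 regulators split. Chek1, the checkpoint kinase that guards stalled forks, had values of 8.11, 7.73, 7.73, 7.96 and 8.10 in EB1, EB3, EB5, EB7 and EB9, against 8.93, 9.09, 8.73 and 8.65 in ES2, ES6, ES8 and ES10. The groups were 0.55 apart, with a difference of -0.93 ± 0.12 (adjusted p = 0.00039). Neither of the transcription factors was called. E2f1, an activator of replication genes, had values of 7.67, 7.62, 7.73, 7.70 and 7.74 in EB1, EB3, EB5, EB7 and EB9, against 7.73, 7.91, 7.77 and 7.83 in ES2, ES6, ES8 and ES10, with EB9 above ES2, and a difference of -0.12 (adjusted p = 0.1). Foxm1, an activator of mitotic genes, had 7.71 to 7.73 in EB arrays and 7.69 to 7.77 in ES arrays, a difference of -0.02 (95% interval -0.11 to 0.07, adjusted p = 0.73). Its EB arrays were nearly constant (SD 0.008, against a median of 0.09 over the members), and whether its probe set reads above background was not tested.

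Set beside each other, replication members had a median difference of -0.61 and mitosis members of -0.76, and the 2 ranges overlapped widely (-1.68 to 0.25 and -1.07 to -0.02). Called lower were 22 of 31 replication members and 17 of 18 mitosis members, and a 2-fold fall was called in 4 and 3. Each array was placed by the median of its members relative to the midpoint of the 2 group means. As the midpoint was taken from the same arrays, the groups lie on either side of 0 largely by construction. A larger distance from 0 in a class largely restates its larger median difference. For replication members this median lay between -0.37 and -0.19 in EB arrays and between 0.20 and 0.32 in ES arrays. For mitosis members it lay between -0.42 and -0.29 in EB arrays and between 0.25 and 0.45 in ES arrays. The replication median minus the mitosis median was 0.04 to 0.17 on EB arrays and -0.15 to -0.01 on ES arrays. The 2 classes share their arrays, so no test was made between them.

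**Figure D3:**
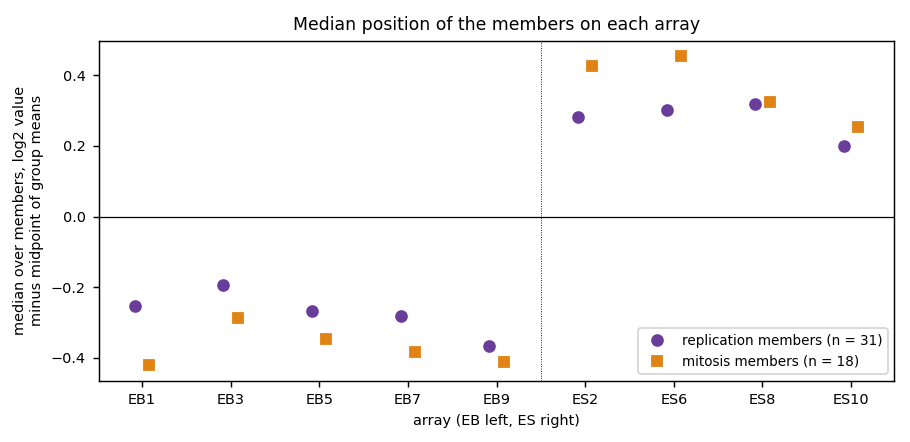
Median over the replication members (purple circles) and the mitosis members (orange squares) of the log2 value minus the midpoint of the 2 group means, for each array, EB left and ES right. All EB arrays lie below 0 and all ES arrays above, and the squares lie farther from 0 than the circles on every array, least so on ES8 (a difference of -0.01). Both traits largely restate the median differences, as the midpoint comes from the same arrays.

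Arrays of 1 group were not alike, for these genes or over all genes. EB9 was the lowest EB array in 15 of 31 replication members and 11 of 18 mitosis members, against 14.7% of all genes. EB3 was the highest EB array in 13 and 14 of them, against 17.2% of all genes. ES10 was the lowest ES array in 13 and 11, against 21.6% of all genes. Among mitosis members, ES2 or ES6 was the highest ES array in 8 and 9 (18.3% and 22.3% of all genes), while ES8 was the highest in 13 of the replication members (14.8% of all genes). Over all genes, EB1 was the lowest EB array in 45.6% and EB9 the highest in 42.4%, and ES8 the lowest ES array in 43.3% and ES10 the highest in 44.5%. All genes take in dim ones of a mean log2 value under 4, unlike any member, and whether these array shifts depend on brightness was not tested. The spread among arrays of a group was small against the difference between groups, with a median SD of 0.09 in embryoid bodies and 0.10 in ES cells over the members.

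Most members can be read a second time on another probe set of the same gene. Of the 38 members with several probe sets, 20 had probe sets whose calls differed. In 15 of them, a called fall on the brightest probe set stood beside another probe set that was not called. In 4 members that were not called, another probe set was lower: Orc1 (-2.36), Prim1 (-0.41), Fen1 (-0.40) and Gins2 (-0.30). Over the 63 further probe sets, 30 were lower and the rest were not called, against 9.77% lower among the further probe sets of all genes, and 16 had a mean log2 value under 4, of which 1 was called. Repeated falls were close for Rpa2 (-0.94 and -0.97). They were larger on further probe sets for Orc2 (-0.61, then -1.12 and -1.68), Kif11 (-0.70, then -0.72 and -1.04) and Cdc20 (-1.05, then -1.27 and -1.37). They were smaller for Ccna2 (-0.95, then -0.45), Mcm2 (-0.90, then -0.76) and Mcm6 (-0.62, then -0.54 and -0.38). Counted by any probe set, which gives genes with several probe sets more chances, 44 of 52 members had a called fall, against 16.7% of all genes.

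**Figure D4:**
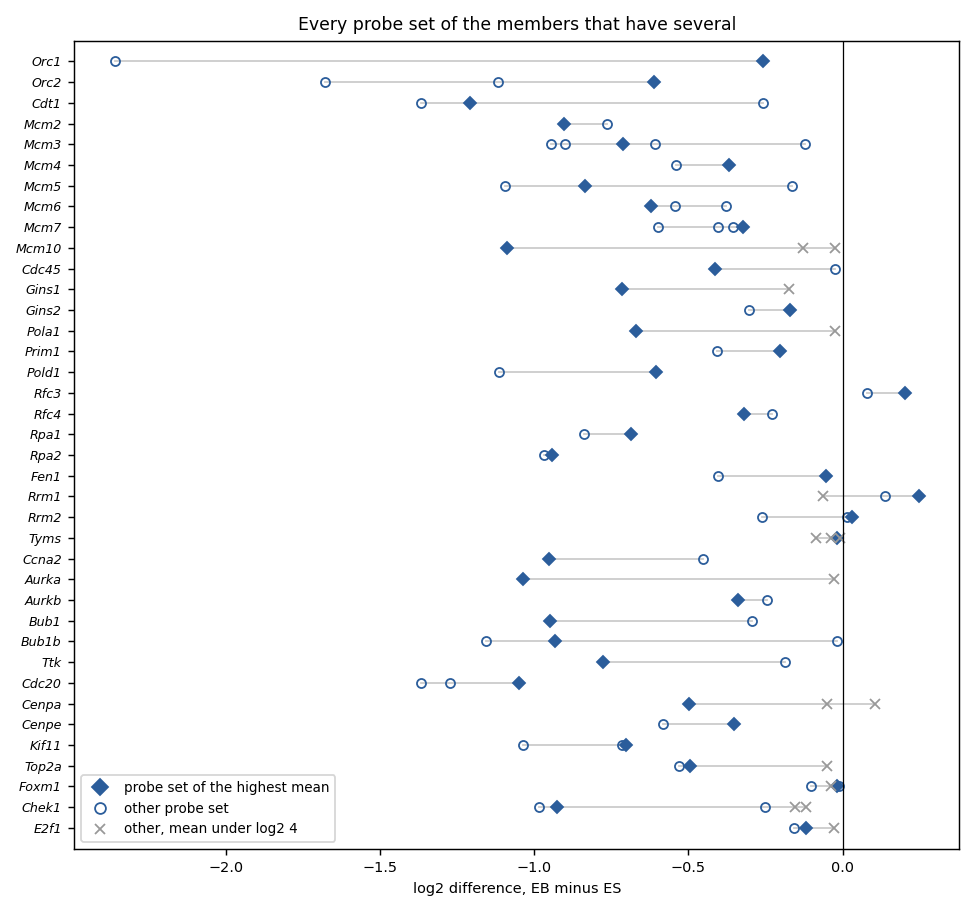
Log2 difference of embryoid bodies minus ES cells on every probe set of the 38 members that have several; filled diamonds are the probe sets of the highest mean, open circles are others, and crosses are others with a mean log2 value under 4. Most points lie left of 0, the widest gap is that of Orc1 (-0.26 and -2.36), and crosses lie near 0.

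Further genes of both processes, listed with earlier results of these data known, were also lower for the most part. By the same call, 14.7% of all genes were lower and 15.7% higher, and 20.9% and 23.4% of those with a mean log2 value of 4 or more. Of 36 other replication genes, 21 were lower and 1 was higher, with a median of -0.41. The largest falls were those of Dbf4, the activating subunit of the kinase that fires origins (-1.28), Ticrr, which helps load Cdc45 (-1.07), Orc5 (-1.04) and Tipin, a fork protection factor (-0.99). The 1 higher gene was Pole3, an accessory subunit of the polymerase whose catalytic subunit is Pole, with 8.72 ± 0.16 in embryoid bodies and 8.09 ± 0.17 in ES cells (SD), a difference of 0.63 (adjusted p = 0.0016). Of 54 other mitosis genes, 42 were lower and 12 were not called, with a median of -0.57. Anln, an actin binder of the cleavage furrow (-1.57), Kif18a, a kinesin of chromosome alignment (-1.40), Ccnf, cyclin F (-1.37), and Espl1, separase (-1.30), fell the most.

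Different elements were frequent in the promoters of the 2 classes. Windows were at hand for 44 members (26 replication, 16 mitosis and 2 regulators), and motifs were sought on both strands, with overlapping matches in 1 promoter counted once. Some genes had several windows, and a gene was counted when any of its windows held a match. An E2F motif, in any of the 4 spellings given above, lay in 11 of 26 replication members (42.3%) and 1 of 16 mitosis members (6.25%). The shares were 3.81% of the 14452 measured genes with a window and 2.26% of all 32851 windows, each window counted singly. A CHR motif lay in 5 of 26 replication members (19.2%) and 13 of 16 mitosis members (81.3%), against 17.5% of the measured genes and 19.2% of all windows. In the 150 bases nearest the start, E2F was found in 8 of 26 replication and 0 of 16 mitosis members, against 2.08% of the measured genes. CHR was found there in 2 of 26 (7.69%) and 13 of 16, against 7.36% of the measured genes. The match nearest the start began between bases -98 and 41 for CHR in mitosis members (median 5) and between -149 and 40 for E2F in replication members (median 1), with the start site as base 1. The first base of a CCAAT box (CCAAT) can also be the last base of an E2F match, as in Mcm7. This box lay in 18 of 26 replication members and 14 of 16 mitosis members, against 42.0% of the measured genes and 37.4% of all windows. Among the further genes with a window, E2F lay in 9 of 31 replication and 5 of 46 mitosis genes, and CHR in 5 of 31 and 29 of 46. A match is a run of letters and does not show that a factor binds there.

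**Figure D5:**
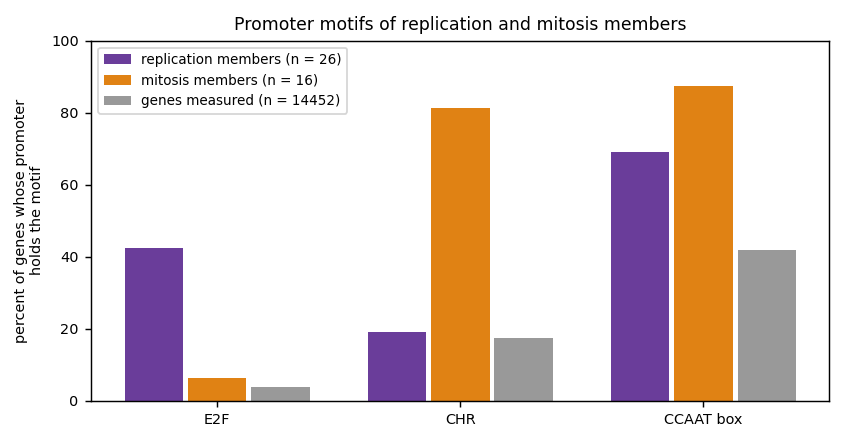
Percent of genes with an E2F motif, a CHR motif or a CCAAT box in any of their promoter windows of 300 bases, for replication members (purple, n = 26), mitosis members (orange, n = 16) and all measured genes with a window (grey, n = 14452). The E2F bar is highest in replication members (42.3%) and the CHR bar in mitosis members (81.3%).

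Within a class, the falls of members with and without the motif overlapped. The 11 replication members with an E2F match had a median difference of -0.62 (range -1.21 to 0.20) with 9 lower, and the 15 without had a median of -0.40 (range -1.68 to 0.25) with 9 lower. The 13 mitosis members with a CHR match had a median of -0.90 (range -1.07 to -0.02) with 12 lower, and the 3 without had a median of -0.43 (range -0.74 to -0.35) with 3 lower. In replication members CHR matches were near their share of all measured genes (19.2% against 17.5%), and the medians lay the other way. The 5 with a match had a median of -0.32 (range -0.90 to 0.20) with 3 lower. The 21 without had a median of -0.61 (range -1.68 to 0.25) with 15 lower. Of the windows shown above, those of Cdt1 (E2F match 33 bases into the transcript) and Rfc3 (matches at -10 and 1) belong to the ends of the range with an E2F match, -1.21 and 0.20. Rfc5, the largest fall, had no E2F or CHR match in its window, which says only that these letters are not there. Mki67 carried CHR matches at -116 and -98 and was not called. These are descriptions of single windows and were not tested.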

How the data were processed

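Total RNA of E14 embryoid bodies and ES cells was measured on Affymetrix mouse arrays of 45101 probe sets. The deposited table gives 1 intensity per probe set and array on a linear scale, made by the authors with GCRMA, which corrects background by probe sequence, normalizes and sums the probes of a set; whether the 9 arrays were processed together is not given in the sources used here. GCRMA draws dim probe sets towards a floor, which narrows their differences. No read depth applies to arrays; precision here is set by the count of arrays in each group.

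The 64 control probe sets were left out, and log2 values of the remaining 45037 were fitted with limma 3.58.1 in R 4.3.3 (lmFit, eBayes with trend and robust, no covariates), with Benjamini-Hochberg adjustment over all of them. Called means an adjusted p under 0.05. Intervals are 95% intervals of the fit. Of the probe sets, 34945 had 1 gene symbol, 932 several and 9160 none in the array annotation, and a gene was read on its highest-mean probe set with that symbol alone. The fit was checked with probe sets changed by known amounts. Per-array values are given for the 6 replication and the 6 mitosis or regulator members of the largest fall, for members called higher, for members not called where their family is described, and for Aurkb and Chek1, which were chosen after their values were seen. Motifs were searched in Python 3.11.15. Alternatives were quantile normalization, median centring, eBayes without trend and without robust (plain eBayes), array weights and a filter at log2 4. Others were plain probe sets (suffix _at with no letter), the mean over probe sets, and leaving out each array. Members and lists were chosen with earlier results of these data known.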

Additional observations from a re-analysis of the deposited data

Results flagged for a closer look

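In each member the highest or lowest array of a group was set against the others of that group by Dixon's criterion, which picks about 1 in 20 groups by chance; 6 of 104 groups were picked. Gins2 had 8.54 in EB9, with the other EB arrays between 8.66 and 8.69. Pola1 had 7.73 in EB3, with the others between 8.01 and 8.10, and Mad2l1 had 10.28 in EB1, with the others between 10.43 and 10.49. Among ES arrays, Orc6 had 10.21 in ES8 (others 10.12 to 10.14), Mcm3 had 11.29 in ES2 (others 11.40 to 11.43) and Cdc20 had 12.45 in ES10 (others 12.65 to 12.66). The arrays that stood apart were 6 different ones, and apart from Gins2, which was not called, these members were lower in embryoid bodies with no overlap between groups.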

How the results depend on the processing

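The labels name no pairs of embryoid body and ES cell arrays, and the groups share no replicate numbers, so no paired analysis was made. Embryoid body numbers are odd and ES cell numbers even, and whether arrays of neighbouring numbers were prepared together is not given. With each array left out in turn, members called lower numbered 39 to 41 (40 with all arrays), members 2-fold lower 6 to 9, members called higher 1 to 2, other replication genes called higher 1 to 2, and all genes called lower 2342 to 4823, the highest without EB9. Their median differences were -0.63 to -0.57 for replication and -0.79 to -0.74 for mitosis. Members called higher were 2 under quantile normalization, plain eBayes, array weights and the filter at log2 4, and other replication genes called higher were 2 under these and under median centring. Array weights called 5109 genes lower. Plain probe sets gave a mitosis median of -0.92 and a replication minus mitosis difference of 0.30 (0.15 as reported), and the mean over probe sets gave medians of -0.45 for replication and -0.59 for mitosis. Leaving out pairs of ES arrays was chosen after seeing the data. Without ES2 and ES6 the replication median was -0.54, and without ES8 and ES10 there were 12 members 2-fold lower, 2 other replication genes higher and a difference of 0.21.

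Only members near 0 changed sign. Fen1 was 0.025 under quantile normalization, 0.0026 with array weights and 0.014 without ES8 and ES10. Mki67 was 0.054 under quantile normalization and 0.054 without ES2 and ES6, and ran between -0.053 and 0.022 with 1 array left out, positive without EB9 or ES6. Rrm2 was -0.073 on the mean over probe sets and -0.13 without ES2 and ES6, and ran between -0.032 and 0.10 with 1 array left out, negative without EB7, ES2 or ES6. Tyms ran between -0.047 and 0.0048, positive without EB1, and Foxm1 was 0.0057 without ES8 and ES10. Calls of 4 members were lost under some alternative: Aurkb (also -0.32 with median centring), Rrm1, Cenpa (-0.05 on plain probe sets, -0.15 on the mean over probe sets) and Top2a (-0.53 on plain probe sets). Another 7 members that were not called passed under some alternative: Rfc3 as higher (8 alternatives), and Gins2 (6), Prim1 (5), Rfc4 (4), Orc1 (3), E2f1 (1) and Fen1 (1) as lower. The cause was not tested.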
